A study of Mus musculus with 2 samples.

Results

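The genes that encode the subunits of the proteasome were followed in spleen T cells of mice, in 2 single-cell transcriptome libraries, 1 per genotype. The members are all genes listed in both count tables whose names start with Psma, Psmb, Psmc, Psmd or Psme followed by a digit, which gave 43 of 18318 genes. Of these, 41 encode numbered subunits or activators, and the other 2, Psme2b and Psmc3ip, are described at the end. The first group, LatY136F CD45-KO (called CD45-KO here), was compared with LatY136F. Mice of both groups carry the LatY136F allele, in which the T cell adaptor LAT has lost the tyrosine that recruits phospholipase C gamma, and were 8 to 9 weeks old. LatY136F mice are known to develop a polyclonal expansion of T helper 2-type cells. CD45, encoded by Ptprc, is a receptor tyrosine phosphatase that acts on the kinases Lck and Fyn. Spleen cells were sorted as CD3+CD5+ and captured on the BD Rhapsody system. No mice with normal LAT are part of the comparison. The number of mice in each library and the map from cells to sample tags were not used here, so each genotype is 1 sample. No p-value is given, and every interval is an exact 95% interval that covers counting error only.

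The 26S proteasome degrades ubiquitin-tagged proteins. Its 20S core is a barrel of alpha rings, which control entry, and beta rings, which hold the catalytic sites, and its 19S cap recognises, unfolds and feeds in the substrate with a ring of ATPases and a set of non-ATPase subunits. In lymphocytes, and in other cells under interferon, the catalytic subunits Psmb5, Psmb6 and Psmb7 are replaced in new particles by Psmb8, Psmb9 and Psmb10, which form the immunoproteasome and change the peptides made for MHC class I. The PA28 activator, built from Psme1 and Psme2, is also induced by interferon, whereas falling proteasome capacity is answered through the transcription factor Nfe2l1, which raises constitutive subunit genes together.

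The CD45-KO table held 12845 cells and 29268453 UMIs (unique molecular identifiers, counts of captured molecules), and the LatY136F table held 13775 cells and 35300371 UMIs. T-gated cells, with at least 1 UMI of 7 T cell receptor complex genes and fewer than 3 UMIs of 10 B cell and myeloid genes, were 12737 CD45-KO cells (99.2% of those kept) and 13721 LatY136F cells (99.8%). Their median depth was 1988 UMIs in CD45-KO and 2154 UMIs in LatY136F, and 223 cell indices occurred in both tables. Within T-gated cells the B cell and myeloid markers summed to 7.56 CPM in CD45-KO and 6.34 CPM in LatY136F, with C1qa at 0 in both (CPM, counts per 1000000 UMIs of the summed cells). The 7 T cell genes summed to 5975 CPM in CD45-KO and 7691 CPM in LatY136F, with none at 0. Plasma cell markers (3) summed to 5.85 CPM in CD45-KO and 3.19 CPM in LatY136F, erythroid markers (5) to 0.592 CPM in CD45-KO and 2.47 CPM in LatY136F, with Alas2 at 0 in CD45-KO, and NK cell markers (5) to 5.71 CPM in CD45-KO and 2.53 CPM in LatY136F, with Ncr1, Klra4 and Klra8 at 0 in LatY136F. Ptprc (chr1:138062861-138175708) was at 1178 CPM in CD45-KO and 1759 CPM in LatY136F, a log2 ratio of -0.58 (-0.60 to -0.56), and Lat was at 377 CPM in CD45-KO and 425 CPM in LatY136F. Which part of Ptprc is deleted was not given, so its remaining transcripts do not check the label.

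Proteasome transcripts took a smaller part of the T cell transcriptome in CD45-KO. The 41 subunits summed to 4644 CPM in CD45-KO and 5335 CPM in LatY136F, a log2 ratio of -0.20 (-0.21 to -0.19). In single T-gated cells the median was 9 proteasome UMIs in CD45-KO and 11 in LatY136F. The median share of a cell's UMIs, which takes account of its depth, was 0.437% in CD45-KO and 0.493% in LatY136F. The difference was small and spread over nearly all subunits. Of the 40 subunits that reached 20 CPM in either library, 37 were lower in CD45-KO, where 48% of all 6667 genes at that level were below 0. Those lower by at least 1.2-fold were 13 of 40 subunits, against 14.9% of all genes. No subunit was higher by 1.2-fold, against 14.1% of all genes, and none was past 1.5-fold in either direction, against 5.67%. The median subunit ratio was -0.21, and the median of all genes was 0.01, with 5th and 95th percentiles of -0.50 and 0.41. The 3 subunits not lower were Psmd4, Psmd5 and Psme4, and the interval of each spans 0.

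**Figure D1:**
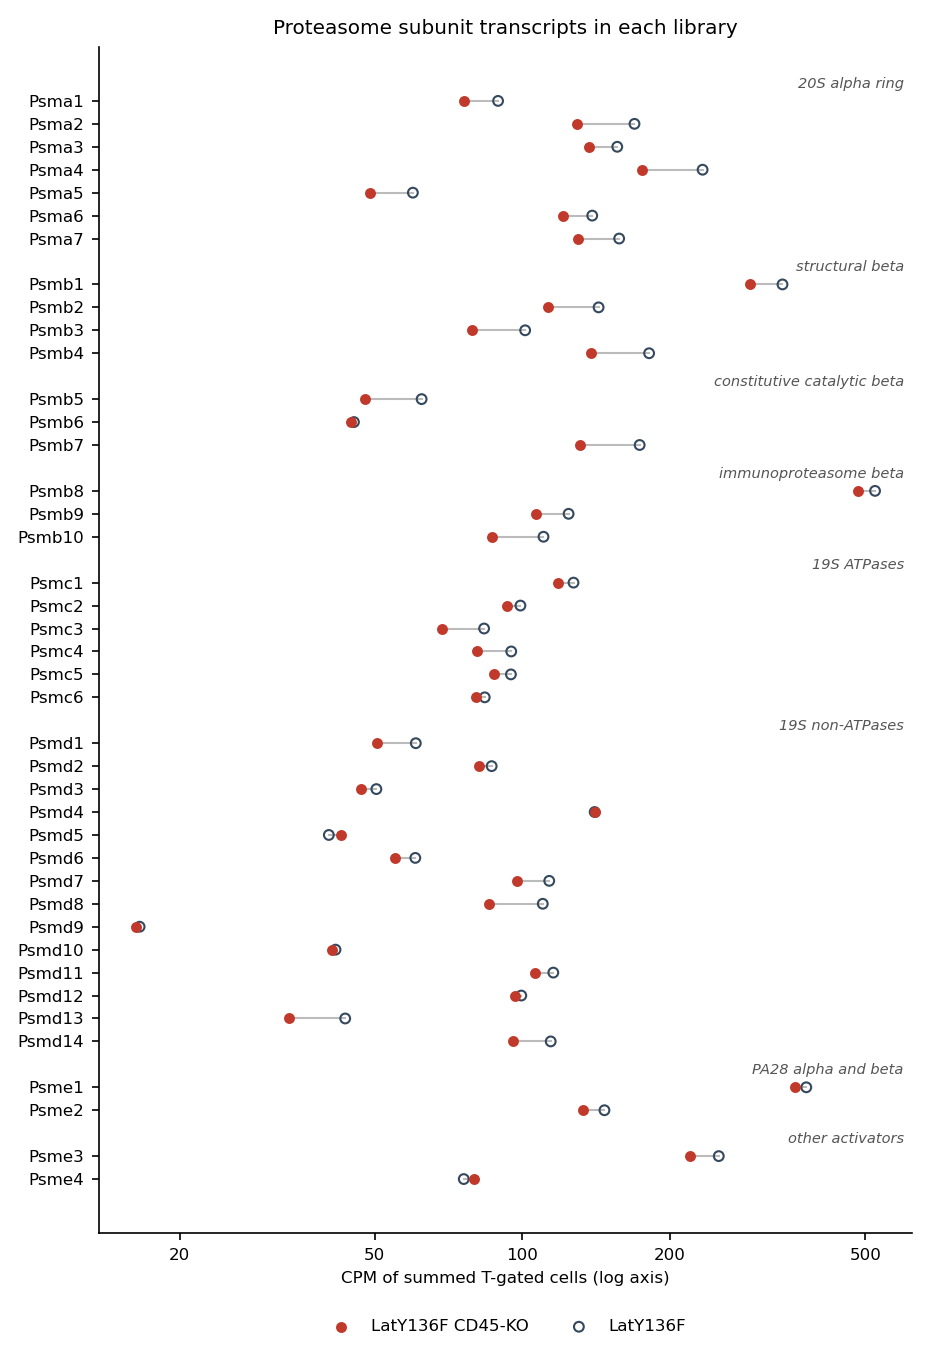
Level of each of the 41 subunits in the summed T-gated cells of the CD45-KO library (filled) and the LatY136F library (open), in CPM on a log axis, by role. The filled point lies left of the open one for all but Psmd4, Psmd5 and Psme4; levels carry no length correction, so they are read within a gene and not between genes.

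Gene length, cell depth and cell state each moved with this difference. Over all genes at 20 CPM, the median ratio was -0.10 in the shortest of 4 equal-sized classes of exonic length (183 to 3009 bases), -0.02 and 0.04 in the middle classes, and 0.11 in the longest class. Most subunit genes are short. In the shortest class 22 of 23 subunits were lower in CD45-KO, against 66.8% of all genes of that class, with a median of -0.22. In the next class 11 of 11 were lower, against 52.5% of all genes, also with a median of -0.22. In the third class 4 of 5 were lower, against 41.7% of all genes, with a median of -0.10, and the 1 subunit of the longest class, Psme4, had a ratio of 0.07. From 1000 UMIs upward, deeper cells carried more proteasome CPM. Those under 1000 UMIs held 4408 CPM in CD45-KO, above the next class, and 4612 CPM in LatY136F, below it. Cells of 4000 or more UMIs held 5717 CPM in CD45-KO and 6352 CPM in LatY136F, and cells of 1000 to 2000 UMIs held 4349 CPM in CD45-KO and 4745 CPM in LatY136F. Such deep cells were 5.79% of CD45-KO and 10.5% of LatY136F T-gated cells. Within depth classes, each without its upper bound, the ratio was -0.07 under 1000 UMIs, where the interval spans 0 (-0.17 to 0.04). It was -0.13 at 1000 to 2000, -0.17 at 2000 to 4000 and -0.15 at 4000 or more. With the mix of cell states set equal in both libraries, the sums were 4739 CPM in CD45-KO and 5241 CPM in LatY136F, a ratio of -0.15. Mitochondrial genes took 9.47% of UMIs in CD45-KO and 8.59% in LatY136F, and ribosomal protein genes took 10.8% in CD45-KO and 9.40% in LatY136F. The part of length, depth, state mix and these gene classes in the subunit difference was not tested.

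The 20S core was lower in CD45-KO by more than the 19S cap. The 14 core subunits outside the immunoproteasome summed to 1659 CPM in CD45-KO and 2048 CPM in LatY136F, a ratio of -0.30 (-0.32 to -0.29), and all 14 were lower. The 20 subunits and chaperones of the 19S cap summed to 1517 CPM in CD45-KO and 1676 CPM in LatY136F, a ratio of -0.14 (-0.16 to -0.13). Of the 19 at 20 CPM, 17 were lower. Of all genes at 20 CPM 48% were lower, a share that also stands beside the role groups below. Median exonic lengths were 2335 bases for the core genes and 2938.5 bases for the cap genes. Among genes of the shortest length class, 9 core subunits had a median ratio of -0.34 and 10 cap subunits one of -0.13. In the next class the medians lay closer, at -0.28 for 5 core subunits and -0.23 for 4 cap subunits.

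All 7 alpha subunits were lower in CD45-KO, and all 7 intervals lay below 0. They summed to 816 CPM in CD45-KO and 1003 CPM in LatY136F, a ratio of -0.30. The share of all genes with an interval below 0 was not counted, here or for the groups below. Psma4, a ring subunit, had the lowest ratio of all subunits, at 175 CPM in CD45-KO and 233 CPM in LatY136F (-0.41, -0.46 to -0.36). Psma3 had the smallest difference of the ring, at 137 CPM in CD45-KO and 156 CPM in LatY136F (-0.19, -0.25 to -0.13). The ring takes up its subunits in equal numbers, and their transcript ratios lay within a range of -0.41 to -0.19.

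The 4 beta subunits with no catalytic site were all lower, each with its interval below 0. They summed to 620 CPM in CD45-KO and 764 CPM in LatY136F, a ratio of -0.30. Psmb4, known in yeast as the last beta subunit to join the ring, was at 138 CPM in CD45-KO and 181 CPM in LatY136F (-0.40, -0.45 to -0.34). Psmb1 was at 291 CPM in CD45-KO and 339 CPM in LatY136F (-0.22, -0.26 to -0.18).

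The constitutive catalytic subunits differed among themselves. Psmb7, the trypsin-like subunit, was at 131 CPM in CD45-KO and 173 CPM in LatY136F (-0.41, -0.47 to -0.35). Psmb5, the chymotrypsin-like subunit and target of bortezomib, was at 47.7 CPM in CD45-KO and 62.3 CPM in LatY136F (-0.38, -0.48 to -0.29). Psmb6, the caspase-like subunit, was at 44.7 CPM in CD45-KO and 45.3 CPM in LatY136F (-0.02, -0.13 to 0.09). The intervals of the other 13 core subunits outside the immunoproteasome all lay below 0, and that of Psmb6 spans 0. Psmb6 also has 2 annotated pseudogenes named after it, and Psmb5 and Psmb7 have 1 each. How the counting treated reads shared with such copies was not given.

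Promoter stretches of catalytic subunits are shown because the 2 constitutive genes with a window, Psmb5 and Psmb6, both hold a match to an Nfe2l1-type motif. Psmb10 is shown as an immunoproteasome gene beside them. Sequences are from RefSeq on GRCm38.p6, 5′ to 3′ on the gene's strand, limited to bases outside annotated exons. Capitals mark TGACNNNGC, the core of the antioxidant response element that Nfe2l1 and Nfe2l2 are known to bind, searched on both strands. No other motif searched was found in these 3 stretches.
Psmb5, chr14:54618023-54618245, minus strand: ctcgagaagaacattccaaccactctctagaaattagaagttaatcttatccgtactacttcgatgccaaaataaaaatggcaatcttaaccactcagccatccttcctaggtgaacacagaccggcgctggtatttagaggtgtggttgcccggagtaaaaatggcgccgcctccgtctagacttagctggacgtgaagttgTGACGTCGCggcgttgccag
Psmb6, chr11:70525107-70525356, plus strand: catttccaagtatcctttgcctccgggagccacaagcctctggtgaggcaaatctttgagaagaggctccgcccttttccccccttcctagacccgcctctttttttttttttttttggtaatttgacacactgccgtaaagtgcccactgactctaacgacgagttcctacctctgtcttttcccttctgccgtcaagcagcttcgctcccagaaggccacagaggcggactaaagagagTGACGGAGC
Psmb10, chr8:105938445-105938642, minus strand: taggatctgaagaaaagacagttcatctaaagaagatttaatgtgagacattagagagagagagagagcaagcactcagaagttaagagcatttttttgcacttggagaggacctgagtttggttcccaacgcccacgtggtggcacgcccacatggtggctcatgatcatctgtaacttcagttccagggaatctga
The match lies close to the start of both constitutive genes. None was found in the windows of the 3 immunoproteasome genes, of which Psmb8 and Psmb9 are wholly exonic and not shown. Of 35 subunits with a promoter window (250 bases before to 50 after the start), 6 held a match, namely Psmb5, Psmb6, Psmc6, Psmd9, Psmd12 and Psme4. Of all 38 subunit windows 15.8% did, and of 32851 windows of all genes 12.4% did, so most windows hold none. Ratios of these 6 ran from -0.38 for Psmb5 to 0.07 for Psme4. The interferon-type motif, GAAA, any 2 bases and GAAA again, was in the windows of 4 subunits, Psmb3, Psmd4, Psmd9 and Psme1, and in 3.44% of all windows. The motif TTCNNNGAA was in those of Psmb8 and Psmd2, and in 8.30% of all windows. CCAAT was in the windows of 5 of 7 alpha subunits and of 13 subunits in all, and in 37.4% of all windows. All motifs were searched on both strands. A match describes the letters of the window and shows no binding.

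The immunoproteasome subunits were also lower in CD45-KO, each to its own extent. They summed to 676 CPM in CD45-KO and 758 CPM in LatY136F, a ratio of -0.16 (-0.19 to -0.14). Psmb8 (chr17:34197721-34201454) and Psmb9 (chr17:34181987-34187764) lie in the MHC region beside the Tap genes (GENCODE M21 on GRCm38), and Psmb10 lies on chromosome 8. Psmb8, which replaces Psmb5, was at 483 CPM in CD45-KO and 523 CPM in LatY136F (-0.11, -0.15 to -0.08). Psmb9, which replaces Psmb6, was at 107 CPM in CD45-KO and 124 CPM in LatY136F (-0.22, -0.29 to -0.15). Psmb10, which replaces Psmb7, was at 86.6 CPM in CD45-KO and 110.4 CPM in LatY136F (-0.35, -0.42 to -0.28). Psmb9 shares a bidirectional promoter region with Tap1, with which its annotated exons overlap on the opposite strand, and Tap1 was at 148 CPM in CD45-KO and 157 CPM in LatY136F (-0.09). Whether the counting used strand was not given.

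The balance between the catalytic sets shifted by little. Psmb8, Psmb9 and Psmb10 were 75.2% (74.7 to 75.7) of the UMIs of the 6 catalytic subunits in CD45-KO and 72.9% (72.5 to 73.4) in LatY136F. Pair by pair the shift had no common direction. Psmb8 was 91.0% of Psmb8 plus Psmb5 in CD45-KO and 89.4% in LatY136F. Psmb9 was 70.5% of Psmb9 plus Psmb6 in CD45-KO and 73.3% in LatY136F, the opposite direction. Psmb10 was 39.8% (38.6 to 41.1) of Psmb10 plus Psmb7 in CD45-KO and 38.9% (37.9 to 39.9) in LatY136F, with intervals that overlap. In ungated cells, described below, Psmb10 was 39.5% (36.6 to 42.4) of this pair in CD45-KO and 45.3% (42.8 to 47.8) in LatY136F. It was also lower in CD45-KO in the Il2ra gate, and higher in the other gates. The immunoproteasome share also moved with depth. In cells under 1000 UMIs it was 73.6% (67.6 to 79.1) in CD45-KO and 75.0% (69.9 to 79.6) in LatY136F, the opposite direction with intervals that overlap, and in cells of 1000 to 2000 UMIs it was 76.3% in CD45-KO and 74.4% in LatY136F. In cells of 2000 to 4000 UMIs, a depth class chosen after seeing the data, it was 75.7% in CD45-KO and 75.1% in LatY136F, and in cells of 4000 or more UMIs it was 71.9% in CD45-KO and 68.2% in LatY136F. After each cell was thinned to 1000 UMIs it was 76.0% in CD45-KO and 74.7% in LatY136F. The difference was 2.24 percentage points over all T-gated cells, 1.28 points after thinning and 0.595 points at 2000 to 4000 UMIs.

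**Figure D2:**
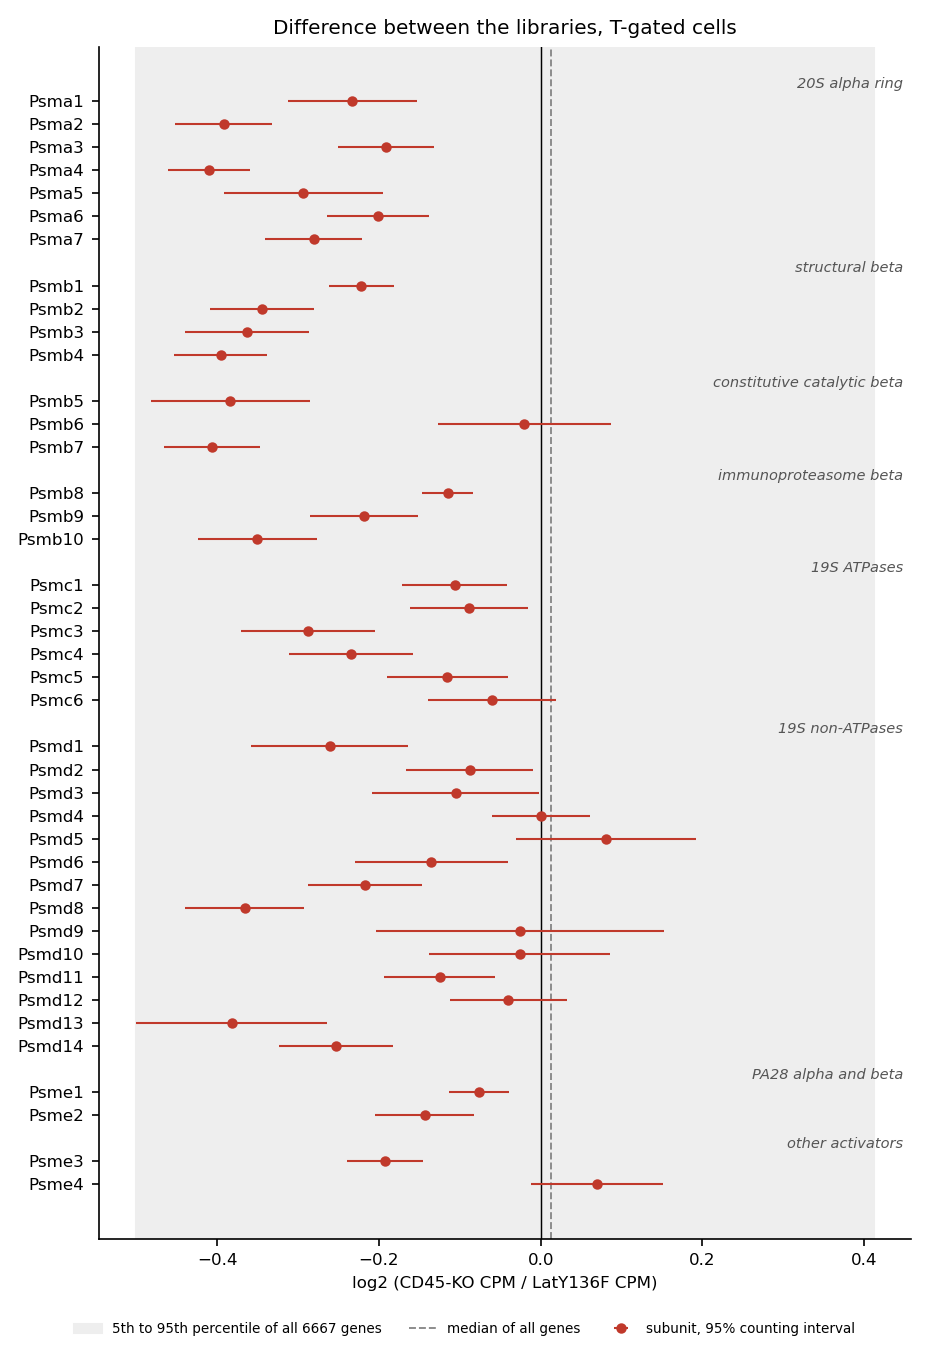
Log2 ratio of CD45-KO over LatY136F CPM for each subunit in T-gated cells with its 95% counting interval, by role. The grey band runs over all 6667 genes from their 5th to 95th percentile (-0.50 to 0.41) with their median (0.01) dashed; alpha and most beta subunits sit between -0.41 and -0.19, whereas Psmb6, Psmd4, Psmd5, Psmd9, Psmd10, Psmd12, Psmc6 and Psme4 have intervals that span 0.

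In the 19S cap the ATPases, which unfold the substrate, summed to 528 CPM in CD45-KO and 583 CPM in LatY136F, a ratio of -0.14 (-0.17 to -0.11). All 6 were lower. Psmc3 was the lowest, at 68.4 CPM in CD45-KO and 83.5 CPM in LatY136F (-0.29, -0.37 to -0.20). Psmc6 differed least, at 80.3 CPM in CD45-KO and 83.8 CPM in LatY136F, and its interval spans 0 (-0.06, -0.14 to 0.02).

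The non-ATPase group of the cap was mixed. It summed to 989 CPM in CD45-KO and 1093 CPM in LatY136F, a ratio of -0.14 (-0.17 to -0.12), and 11 of 13 subunits at 20 CPM were lower. Psmd13, a subunit of the lid, was at 33.4 CPM in CD45-KO and 43.5 CPM in LatY136F (-0.38, -0.50 to -0.26). Psmd4, the ubiquitin receptor known in yeast as Rpn10, was at 140.4 CPM in CD45-KO and 140.3 CPM in LatY136F (0.00, -0.06 to 0.06). Psmd5, Psmd9 and Psmd10 are chaperones that help to build the base and are absent from the finished particle. Psmd5 was at 42.6 CPM in CD45-KO and 40.3 CPM in LatY136F (0.08, -0.03 to 0.19). Psmd10, named for its role after its values were seen, was at 40.9 CPM in CD45-KO and 41.6 CPM in LatY136F (-0.03, -0.14 to 0.09). Psmd9 did not reach 20 CPM, with 16.3 CPM in CD45-KO and 16.6 CPM in LatY136F. For none of these 3 chaperones did the interval leave 0.

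The PA28 pair had the smallest difference of the role groups, a ratio of -0.09 (-0.13 to -0.06). Psme1, the alpha subunit of PA28, was at 359 CPM in CD45-KO and 379 CPM in LatY136F (-0.08, -0.11 to -0.04). Its partner Psme2 was at 133 CPM in CD45-KO and 147 CPM in LatY136F (-0.14, -0.20 to -0.08). Psme3, the nuclear PA28 gamma, was at 219.8 CPM in CD45-KO and 251 CPM in LatY136F (-0.19, -0.24 to -0.15). Psme4, the large activator PA200, was at 79.7 CPM in CD45-KO and 75.9 CPM in LatY136F (0.07, -0.01 to 0.15). Psme4 has the longest exonic length of the members, at 8382 bases.

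Cell states were then set apart by transcript gates, each a minimum number of UMIs over a short gene list, with cells in no gate called ungated. A cell can pass several gates. Each gate counts raw UMIs, and gated cells had a higher median depth than ungated cells, for reasons that were not tested. Median depth was 1747 UMIs in CD45-KO and 1840 UMIs in LatY136F for ungated cells, and 3078.5 UMIs in CD45-KO and 3449.5 UMIs in LatY136F for cycling cells. Beside the values for all cells of a state, its sum, ratio or excess is therefore also given for those of 2000 to 4000 UMIs. Foxp3 cells (29 in CD45-KO and 99 in LatY136F) and stress cells gated on Hspa1a and Hspa1b (287 in CD45-KO and 22 in LatY136F) were too few in at least 1 library, and their members are not described. In ungated cells the subunits summed to 4509 CPM in CD45-KO and 4994 CPM in LatY136F, a ratio of -0.15 (-0.17 to -0.12), with 34 of 40 lower against 46.8% of all genes, and at 2000 to 4000 UMIs the ratio was -0.17. Excess over ungated cells is given on the log2 scale. Subunits named as first or last in a gate were ranked by the mean excess of the libraries, so the order within a single library can differ.

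Over cells of all depths, proteasome transcripts were highest in those with T follicular helper genes, gated on 3 UMIs over 6 genes such as Cxcr5 and Bcl6, which mark the T cells that help B cells in germinal centres. The 41 subunits summed to 6054 CPM in 270 such CD45-KO cells and 6715 CPM in 206 such LatY136F cells, 0.43 above ungated cells in both libraries. At 2000 to 4000 UMIs the excess was 0.20 in CD45-KO and 0.15 in LatY136F. At that depth they were highest in LatY136F, at 5726 CPM, but not in CD45-KO. There they held 5278 CPM and cells gated on Gzma and Gzmb held 5367 CPM. After thinning, cells with T follicular helper genes held 5069 CPM in CD45-KO and 5625 CPM in LatY136F. Thinned cycling cells were higher, at 5655 CPM in CD45-KO and 6235 CPM in LatY136F. In this gate 29 of 41 subunits were lower in CD45-KO than in LatY136F, against 47.2% of all genes. Relative to ungated cells, 32 of 41 subunits were at least 1.2-fold higher in CD45-KO, 33 in LatY136F and 28 in both. Of all genes, 35.6% reached this level in CD45-KO and 36.1% in LatY136F. By the mean of the libraries Psmb9 led, at 1.14 above ungated cells in CD45-KO and 0.67 in LatY136F. In LatY136F alone other subunits were higher, such as Psmc6 at 0.92 and Psmd7 at 0.86. Psmb6 was 0.92 above in CD45-KO and 0.68 in LatY136F, and Psmc5, an ATPase, was 0.86 above in CD45-KO and 0.69 in LatY136F. Psme4, Psmb3 and Psmb10 were at the low end, and Psmb10 had opposite signs, 0.18 in CD45-KO and -0.41 in LatY136F.

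Cells with interferon-stimulated genes, gated on 5 UMIs over 14 genes such as Ifit1 and Isg15, had the highest immunoproteasome share. Their subunits summed to 5698 CPM in 191 CD45-KO cells and 6020 CPM in 280 LatY136F cells, an excess of 0.34 in CD45-KO and 0.27 in LatY136F. At 2000 to 4000 UMIs the excess was 0.16 in CD45-KO and 0.14 in LatY136F. The immunoproteasome set was 0.59 above ungated cells in CD45-KO and 0.39 in LatY136F, and the constitutive catalytic set was 0.26 above in CD45-KO and 0.28 in LatY136F. Psmb9 led here too, at 202 CPM in CD45-KO and 185 CPM in LatY136F, against 102 CPM and 116 CPM in the ungated cells of CD45-KO and LatY136F. Of 40 subunits 26 were lower in CD45-KO than in LatY136F, against 48.8% of all genes. Psma4 was 0.79 above ungated cells in CD45-KO and 0.47 in LatY136F, and Psmb10 was 0.67 above in CD45-KO and 0.38 in LatY136F. Psma1, Psmc3 and Psmd11 were at the low end, and Psmd11, a lid subunit, was at -0.33 in CD45-KO and -0.29 in LatY136F. The immunoproteasome share was 79.4% (76.5 to 82.1) in CD45-KO and 76.9% (74.5 to 79.1) in LatY136F, against 75.4% in ungated cells of both libraries. At 2000 to 4000 UMIs it was 84.0% in CD45-KO and 82.6% in LatY136F, where ungated cells had 75.2% in CD45-KO and 76.0% in LatY136F. Subunits 1.2-fold above ungated cells were 22 of 40 in CD45-KO, 22 in LatY136F and 15 in both. Of all genes, 21.8% reached this level in CD45-KO and 18.9% in LatY136F.

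**Figure D3:**
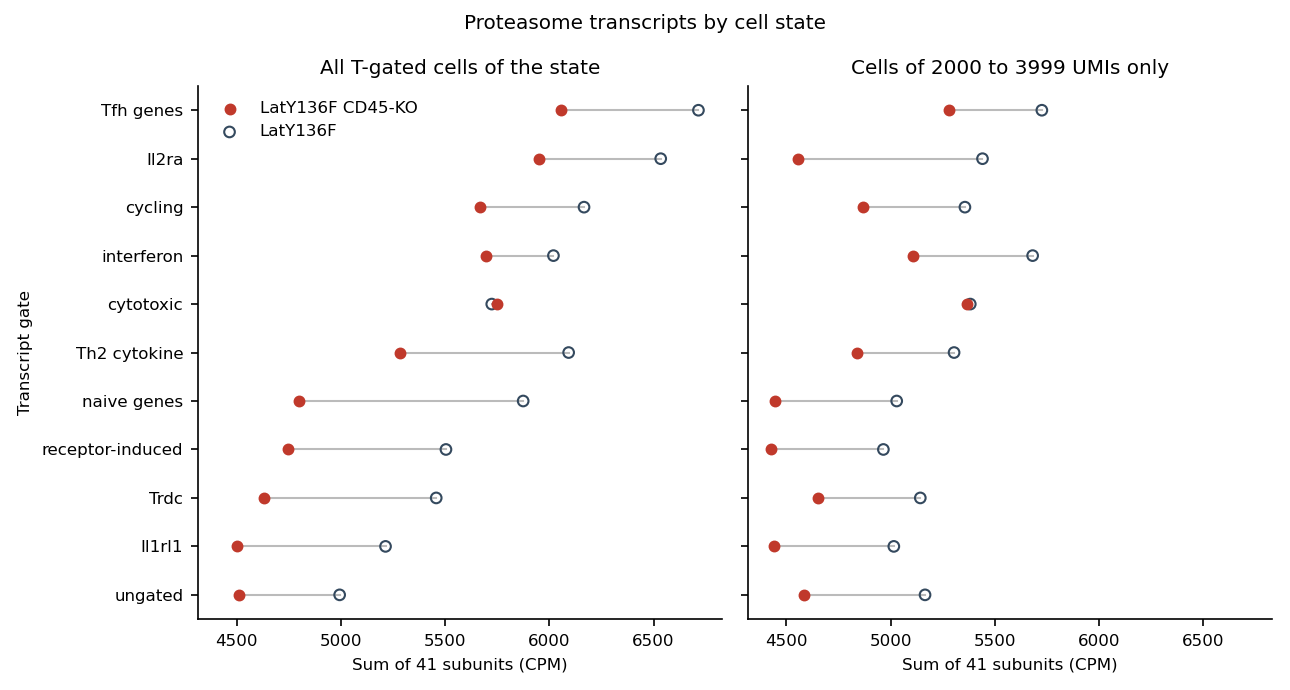
Summed CPM of the 41 subunits by transcript gate in CD45-KO (filled) and LatY136F (open), for all T-gated cells of a gate at left and for cells of 2000 to 4000 UMIs at right, without the 2 gates that hold few cells. The filled point lies left of the open one except in the cytotoxic gate of all depths, where CD45-KO is at 5748 CPM and LatY136F at 5724 CPM.

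In cycling cells, gated on 3 UMIs over 22 genes, the levels were 5666 CPM in 1076 CD45-KO cells and 6166 CPM in 2398 LatY136F cells, an excess over ungated cells of 0.33 in CD45-KO and 0.30 in LatY136F. The libraries themselves had a ratio of -0.12, with 31 of 41 subunits lower in CD45-KO, against 46.5% of all genes. The excess differed between the depth settings. At 2000 to 4000 UMIs it was 0.09 in CD45-KO and 0.05 in LatY136F, and after thinning it was 0.33 in CD45-KO and 0.31 in LatY136F. The thinned gate held other cells, because gates were applied after thinning. It kept 336 CD45-KO and 973 LatY136F cells. Ungated cells rose from 2825 to 5294 in CD45-KO and from 2912 to 5694 in LatY136F. Over cells of all depths, 39 of 40 subunits were above ungated cells in CD45-KO, 38 in LatY136F and 38 in both. Of all genes, 44.6% were above 0 in CD45-KO and 43% in LatY136F. Those at least 1.2-fold above were 29 in CD45-KO, 29 in LatY136F and 27 in both. Of all genes, 22% reached this level in CD45-KO and 22.3% in LatY136F. Psmc1, an ATPase, was 0.45 above ungated cells in CD45-KO and 0.72 in LatY136F, Psmd13 was 0.57 above in CD45-KO and 0.59 in LatY136F, and Psma4 was 0.66 above in CD45-KO and 0.48 in LatY136F. Psme2, Psmb10 and Psme4 were last, and Psme4 was at -0.12 in CD45-KO and -0.20 in LatY136F. The immunoproteasome share was 72.3% in CD45-KO and 69.2% in LatY136F over all cycling cells, and 76.5% in CD45-KO and 74.2% in LatY136F in those of 2000 to 4000 UMIs.

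Cells with a UMI of Il2ra, the alpha chain of the interleukin-2 receptor, had over all depths the lowest immunoproteasome share of the gates shown, 69.1% in CD45-KO and 67.5% in LatY136F. The constitutive set was 0.62 above ungated cells in CD45-KO and 0.65 in LatY136F, whereas the immunoproteasome set was 0.17 above in CD45-KO and 0.09 in LatY136F. Psma4, Psmc6 and Psmc1 led, and Psmc1 was 0.58 above in CD45-KO and 0.83 in LatY136F. Psmd4, Psme4 and Psmb10 were last, and Psmb10 was at 69.6 CPM in CD45-KO and 107 CPM in LatY136F, or -0.35 and -0.20 against the ungated cells of CD45-KO and LatY136F. Subunits 1.2-fold above ungated cells were 30 of 41 in CD45-KO, 33 in LatY136F and 28 in both. Of all genes, 26.8% reached this level in CD45-KO and 25.3% in LatY136F. Between the libraries 30 of 41 were lower in CD45-KO, against 46.1% of all genes. At 2000 to 4000 UMIs the share was 78.0% in CD45-KO and 73.1% in LatY136F, and the summed excess over ungated cells was -0.01 in CD45-KO and 0.08 in LatY136F.

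In cytotoxic cells, gated on 2 UMIs over Gzma and Gzmb, the libraries were level. The sums were 5748 CPM in 151 CD45-KO cells and 5724 CPM in 1172 LatY136F cells, a ratio of 0.01 (-0.05 to 0.06). The 12 other states, ungated cells included, had ratios below 0. Among those 12 are the small Foxp3 gate, at -0.14 (-0.31 to 0.02), and the small stress gate, which changed sign under other settings. Of 40 subunits in cytotoxic cells, 18 were lower in CD45-KO, against 50.4% of all genes. The excess over ungated cells was 0.35 in CD45-KO and 0.20 in LatY136F, and at 2000 to 4000 UMIs it was 0.23 in CD45-KO and 0.06 in LatY136F. Psmd13, Psmd1 and Psmb6 led over ungated cells, and Psmb6 was at 73.6 CPM in CD45-KO and 45.2 CPM in LatY136F (0.70, 0.19 to 1.19). Psmd11, Psmd2 and Psme4 were last, and Psme4 was at 97.6 CPM in CD45-KO and 70.1 CPM in LatY136F (0.48, 0.04 to 0.89). The immunoproteasome share was 74.5% (71.0 to 77.8) in CD45-KO and 71.9% (70.5 to 73.2) in LatY136F.

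Over cells of all depths, the T helper 2 states had ratios near that of all T-gated cells. Cells with a UMI of Il4, Il5 or Il13 held 5283 CPM in CD45-KO and 6093 CPM in LatY136F, a ratio of -0.21 (-0.24 to -0.17), with 34 of 40 subunits lower against 46.3% of all genes. Those of 2000 to 4000 UMIs held 4840 CPM in CD45-KO and 5304 CPM in LatY136F, a smaller ratio of -0.13 (-0.19 to -0.08), where all T-gated cells had -0.17. Psmd1, Psmd7 and Psmb5 led over ungated cells, Psmb5 with 0.54 in CD45-KO and 0.37 in LatY136F, and Psmb3, Psme4 and Psmb10 were last. Cells with Il1rl1, the receptor for interleukin-33, were 60.8% of CD45-KO and 57.0% of LatY136F T-gated cells. They make up most of that total, so a ratio near it carries little information. They held 4501 CPM in CD45-KO and 5214 CPM in LatY136F, a ratio of -0.21 (-0.23 to -0.20), with 37 of 40 subunits lower against 50.2% of all genes. Such cells of 2000 to 4000 UMIs held 4443 CPM in CD45-KO and 5015 CPM in LatY136F, a ratio of -0.17. Their members lay near ungated cells, with Psmd3, Psmd5 and Psmc1 first and Psme1, Psmb10 and Psme4 last.

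Cells with naive T cell genes, gated on 2 UMIs over 6 genes such as Ccr7 and Lef1, had the lowest ratio of the states over all depths. The sums were 4801 CPM in 1700 CD45-KO cells and 5874 CPM in 1112 LatY136F cells, a ratio of -0.29 (-0.32 to -0.26), and 37 of 40 subunits were lower against 50.5% of all genes. The core outside the immunoproteasome was at -0.42 and the cap at -0.28. Median depth was 2383 UMIs in CD45-KO and 2731 UMIs in LatY136F, and at 2000 to 4000 UMIs the sums were 4444 CPM in CD45-KO and 5029 CPM in LatY136F, a ratio of -0.18. At that depth the Il2ra gate was lower, at 4555 CPM in CD45-KO and 5441 CPM in LatY136F, a ratio of -0.26, and after thinning the ratios were -0.17 for the naive gate and -0.32 for the Il2ra gate. Psmd3, Psmb2 and Psmd7 led over ungated cells, and Psmd10, Psmb10 and Psme4 were last.

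Cells with genes induced by the antigen receptor, gated on 3 UMIs over 8 genes such as Nr4a1 and Egr1, held 4748 CPM in CD45-KO and 5504 CPM in LatY136F, a ratio of -0.21 (-0.23 to -0.19), with 37 of 40 subunits lower against 49.1% of all genes. Their excess over ungated cells was 0.07 in CD45-KO and 0.14 in LatY136F, and at 2000 to 4000 UMIs it was -0.05 in CD45-KO and -0.06 in LatY136F. Psmd7, Psmc1 and Psmb6 led, and Psmb9, Psmb10 and Psme4 were last. Cells with Trdc, a gamma delta T cell receptor gene, held 4629 CPM in 214 CD45-KO cells and 5457 CPM in 570 LatY136F cells, a ratio of -0.24 (-0.30 to -0.17), with 32 of 40 subunits lower against 49% of all genes. Trdc cells of 2000 to 4000 UMIs held 4651 CPM in CD45-KO and 5142 CPM in LatY136F, a smaller ratio of -0.14 (-0.23 to -0.06). Psmb6, Psmd8 and Psmc6 led there, and Psmd1, Psmb7 and Psma1 were last. Psmb7 in Trdc cells was at 86.8 CPM in CD45-KO and 179.9 CPM in LatY136F (-1.05, -1.53 to -0.60), and the immunoproteasome share was 78.4% (74.3 to 82.1) in CD45-KO and 71.7% (69.5 to 73.8) in LatY136F. This share was 77.3% (71.6 to 82.3) in CD45-KO and 73.8% (70.6 to 76.8) in LatY136F at 2000 to 4000 UMIs, with intervals that overlap.

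By the mean of the libraries, Psme4 or Psmb10 stood among the 3 lowest subunits in all of these gates except the interferon and Trdc gates. By the same mean, Psmb9 led in the interferon and Tfh-gene gates. In CD45-KO alone, neither Psme4 nor Psmb10 was among the 3 lowest in the Tfh-gene, cytotoxic and Th2 cytokine gates. In that order, Psme4 was 0.34, 0.26 and 0.20 above ungated cells there, and Psmb10 was 0.18, 0.42 and 0.07 above. In LatY136F both genes were below ungated cells in those gates. The core was lower relative to the cap within states too. In ungated cells the core outside the immunoproteasome had a ratio of -0.24 and the cap one of -0.03. In cycling cells these ratios were -0.22 for the core and -0.07 for the cap, and in interferon cells they were -0.24 for the core and 0.01 for the cap.

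**Figure D4:**
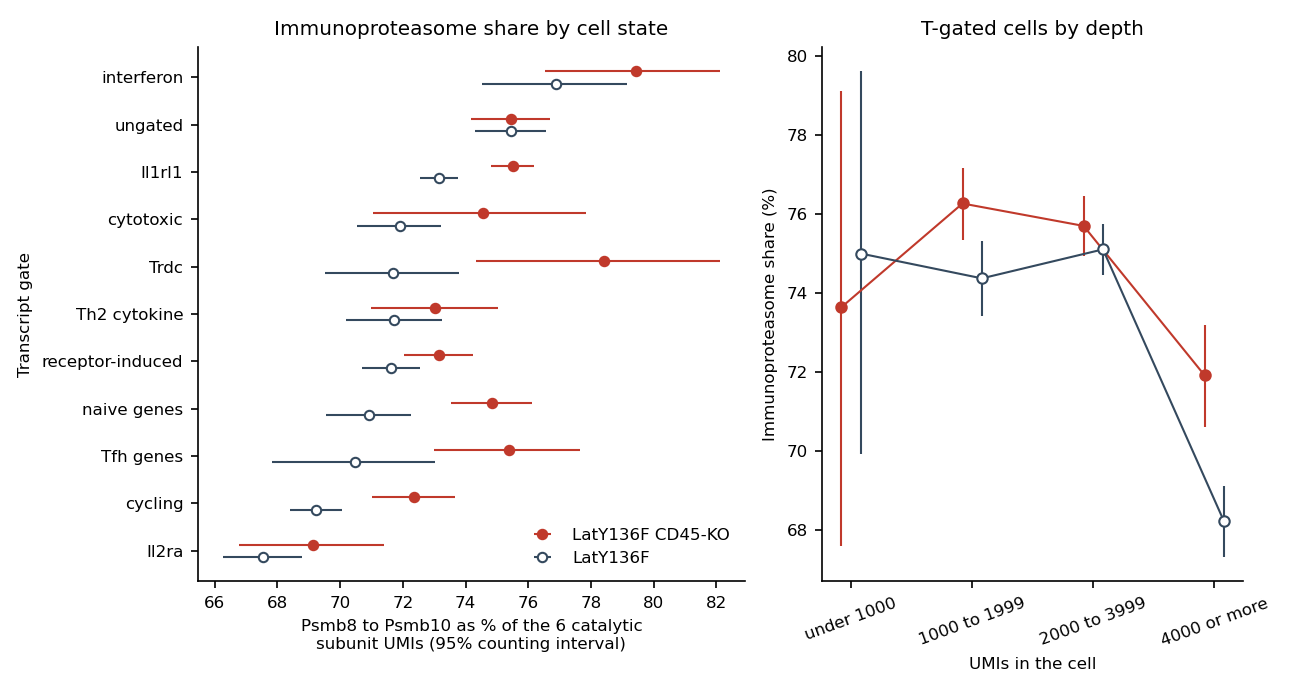
Immunoproteasome share, the UMIs of Psmb8, Psmb9 and Psmb10 as a percentage of those of the 6 catalytic subunits, in CD45-KO (filled) and LatY136F (open) with 95% counting intervals, by gate at left and by UMIs per cell at right. The interferon gate is highest in both libraries (79.4% in CD45-KO and 76.9% in LatY136F) and the Il2ra gate lowest over all depths (69.1% in CD45-KO and 67.5% in LatY136F), and the share is lowest in cells of 4000 or more UMIs.

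Genes around the proteasome were read from 4 lists. Of 9 known direct or indirect regulators of subunit transcription, the 8 at 20 CPM were higher in CD45-KO, where 52% of all genes were. Their median ratio was 0.26, and 4 were higher by 1.2-fold, against 14.1% of all genes. The intervals of Stat3 (0.04, -0.01 to 0.09) and Ngly1 (0.07, -0.05 to 0.19) span 0. The ninth, Foxo4, was under 20 CPM in both libraries, with a ratio of -0.08. Irf1, which drives the immunoproteasome genes, was at 176 CPM in CD45-KO and 136 CPM in LatY136F (0.37, 0.31 to 0.43). Ddi2, the protease that activates Nfe2l1, was at 55.2 CPM in CD45-KO and 43.3 CPM in LatY136F (0.35, 0.25 to 0.45). Nfe2l2, a relative of Nfe2l1, was at 64.9 CPM in CD45-KO and 53.4 CPM in LatY136F (0.28, 0.19 to 0.37). These genes are long, with a median exonic length of 7330 bases, and all genes of the longest length class had a median of 0.11. The median ratio was thus above 0 for the regulators and below 0 for the subunits.

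Assembly and import factors were mixed. Of 6 at 20 CPM, 3 were lower and 3 higher, with a median of -0.03. Pomp, the chaperone of beta ring assembly that is degraded by the finished core, was at 226 CPM in CD45-KO and 299 CPM in LatY136F (-0.41, -0.45 to -0.36). Psmg4, an alpha ring chaperone, was at 23.6 CPM in CD45-KO and 27.4 CPM in LatY136F (-0.22). Ecpas, a proteasome adaptor, and Akirin2, which carries proteasomes into the nucleus, had ratios of 0.12 and 0.10.

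Proteasome-bound and ubiquitin genes had a median of -0.05, with 9 of 15 lower, against 48% of all genes. Sem1, a small subunit of the 19S lid whose name lies outside the numbering, was at 110.02 CPM in CD45-KO and 166 CPM in LatY136F (-0.59, -0.66 to -0.53), and was the 1 listed gene past 1.5-fold. Ubb, a polyubiquitin gene, was at 1146 CPM in CD45-KO and 1448 CPM in LatY136F (-0.34). The shuttle factors Ubqln4 and Ubqln1 were higher in CD45-KO, at 0.31 and 0.24. In the MHC class I list 8 of 11 were lower, against 48% of all genes, with a median of -0.02. Calr and Pdia3, of the peptide-loading complex, were at -0.30 and -0.14, Tap2, of the peptide transporter, was at -0.27, and Tapbpl, a peptide editor, was at 0.12.

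**Figure D5:**
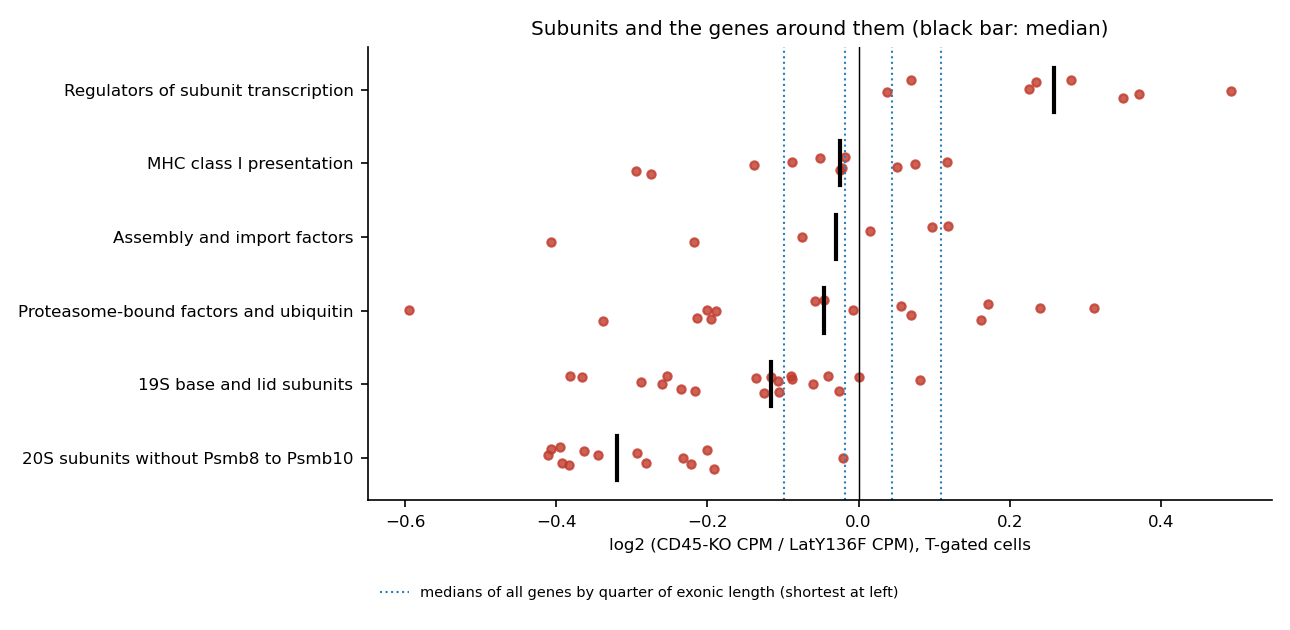
Log2 ratio of CD45-KO over LatY136F CPM in T-gated cells, 1 point per gene with at least 20 CPM, for the 4 lists around the proteasome, the cap and the core, with the median of each as a black bar. Dotted lines give the medians of all genes in the 4 classes of exonic length, -0.10, -0.02, 0.04 and 0.11. The regulators lie right of 0 with a median of 0.26, and the core lies left of 0 with a median of -0.32.

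Other names under the rule were minor. Psme2b, an intronless copy of Psme2, was at 94.1 CPM in CD45-KO and 100.4 CPM in LatY136F (-0.09), and reads of Psme2 and Psme2b may have been divided between them by the counting. Psmc3ip, a meiotic recombination factor and no subunit, was at 3.76 CPM in CD45-KO and 4.89 CPM in LatY136F. Psma8 and Psmb11, the testis and thymus forms, had 1 UMI each in the LatY136F table and were not listed in the CD45-KO table. Annotated exons of Psma4, Psma5, Psmb7, Psmb8, Psmc3, Psmd1, Psmd3, Psmd9, Psmd13 and Psme1 overlap a gene on the opposite strand, as those of Psmb9 do.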

How the data were processed

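Whole transcriptome counts of spleen CD3+CD5+ cells came from 1 library per genotype. The deposited values are counts of UMIs per gene and cell, named as corrected for recursive substitution errors. The pipeline was BD Rhapsody 1.9.1 and the reference GRCm38 with GENCODE M19 genes, per the file headers. The series' design text gives pipeline 2.0 and the submitters' processing notes give GRCm39, so gene locations follow GENCODE M21 on GRCm38. Columns were read as deposited. Cells under 200 genes or over 25% mitochondrial UMIs were dropped, leaving 12834 CD45-KO and 13747 LatY136F cells. No doublet caller was run, and shared cell indices were kept. UMIs were summed over cells and given as CPM of all UMIs of those cells. Genes entered counts of lower and higher genes at 20 CPM in at least 1 library. Intervals at 95% are Clopper-Pearson for shares and, for log2 ratios, the exact binomial interval of 1 count given the sum of both. The interval code was tested on simulated data. Depth was matched by thinning each cell to 1000 UMIs, which left out 359 CD45-KO and 434 LatY136F cells. Gates were then applied to the thinned counts at the same thresholds, so the thinned gates held fewer cells and more cells were ungated.

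With 1 library per genotype no test was possible, and nothing separates genotype from library. The members, gene lists and gates were chosen with earlier results of these data known. Named genes are Psmb5 to Psmb10, Psme1 and Psme2, the highest and lowest ratio in each role group, the 3 highest and 3 lowest subunits over ungated cells in each gate, up to 4 genes with the largest ratio in each pathway list, and members under 20 CPM or outside the numbering. The values of 1 gene named by this rule are not reported here. Psmd4, Psmd10, Stat3 and Ngly1 were named after their values were seen, and Tap1 for its overlap with Psmb9. Python 3.11.15, numpy 2.4.6, scipy 1.17.1, pandas 2.3.3 and matplotlib 3.10.9 were used.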

Additional observations from a re-analysis of the deposited data

Results flagged for a closer look

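The summed level of the 41 subunits in cytotoxic cells had a log2 ratio of CD45-KO over LatY136F of 0.0061 (-0.05 to 0.06). The 12 other states, the small Foxp3 and stress gates among them, had ratios below 0. The cytotoxic value was picked out because its direction differs from that of the other states, and that difference was not tested. The value rests on 151 CD45-KO and 1172 LatY136F cells, and at 2000 to 4000 UMIs the sums were 5367 CPM in CD45-KO and 5382 CPM in LatY136F.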

How the results depend on the processing

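No paired analysis was possible because each genotype has 1 library. The proteasome ratio of -0.20 was -0.16 without mitochondrial, ribosomal and antigen receptor genes in the total, -0.21 after centring on the median gene (a shift of 0.01), -0.18 at most 10% mitochondrial counts, -0.17 with cells weighted equally, -0.18 after thinning, and -0.17 in cells of 2000 to 4000 UMIs. With the state mix held equal it was -0.11, -0.16 and -0.12 under the first 3 of these. The immunoproteasome share was 75.8% in CD45-KO and 74.3% in LatY136F with cells weighted equally, 76.0% and 74.7% in CD45-KO and LatY136F after thinning, and 75.1% in LatY136F at 2000 to 4000 UMIs. Ptprc had a ratio of -0.66 at 2000 to 4000 UMIs. The depth class and the setting without shared cell indices were chosen after seeing the data. Over all settings 35 to 38 subunits were lower in CD45-KO, 10 to 15 by 1.2-fold, and all 8 role groups kept ratios below 0. The median of the assembly list ran from -0.04 to 0.03 and that of the MHC class I list from -0.09 to 0.01, so neither has a stable direction, whereas that of the regulators ran from 0.19 to 0.29. Psmb6 had a ratio of 0.09 at 2000 to 4000 UMIs.

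Single states changed sign as well. Over ungated cells, the receptor-induced gate had -0.012 (equal weights), -0.045 (thinned) and -0.050 (2000 to 4000 UMIs) in CD45-KO, and -0.063 (thinned) and -0.057 (2000 to 4000 UMIs) in LatY136F. At 2000 to 4000 UMIs the naive gate had -0.045 in CD45-KO and -0.038 in LatY136F, the Il2ra gate -0.0092 in CD45-KO, and in LatY136F the Il1rl1 gate -0.042 (-0.044 thinned), the Foxp3 gate -0.044 and the Trdc gate -0.0064. Trdc cells in CD45-KO had -0.12 after thinning, against 0.04 over all depths. Values near 0 crossed it too: the cytotoxic ratio of CD45-KO over LatY136F ran from -0.03 to 0.12, and the excess of the Il1rl1 gate in CD45-KO from -0.05 to 0.02. Foxp3 cells in CD45-KO had -0.087 at a threshold 1 UMI higher. The stress gate held 22 LatY136F cells over all depths, 9 after thinning and 7 at 2000 to 4000 UMIs. Its ratios of CD45-KO over LatY136F were 0.16 (thinned), 0.17 (threshold 1 UMI higher) and 0.079 (2000 to 4000 UMIs). In LatY136F over ungated cells it had -0.25, -0.17 and -0.14 under the same settings. The cause was not tested. Counts of few UMIs per cell limit single subunits in small gates, where intervals are wide.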
